A study of Homo sapiens with 12 samples.

Results

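Adding an siRNA against ELOVL2 to A498 cells that already carried an siRNA against ELOVL5 was examined by setting 3 double-knockdown libraries against 3 siELOVL5 libraries. These 6 libraries were chosen by their column names among the 12 of the series. A498 is a human kidney carcinoma cell line, and total RNA was sequenced as paired-end 36-base reads. The siELOVL5 group had been transfected with siRNA against ELOVL5, and the double-knockdown group with siRNAs against ELOVL2 and ELOVL5. Lowered ELOVL5 is therefore common to both groups, and the ELOVL2 siRNA is what the labels give as different. The other 6 libraries, 3 with a control siRNA and 3 with siRNA against ELOVL2 alone, show the same siRNA in cells with normal ELOVL5. They share no library with the comparison. The labels call the 3 libraries of a group biological replicates and do not say how the cultures were kept apart, so p-values measure the spread between these libraries. The siRNA sequences, their dose, whether the total amount of siRNA was equal between groups and the time of harvest are not stated in the labels.

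ELOVL2 and ELOVL5 are membrane enzymes of the endoplasmic reticulum that start the lengthening of polyunsaturated fatty acids by a pair of carbons. ELOVL5 acts mainly on the shorter substrates and ELOVL2 on the longer ones, and between elongation steps the desaturases FADS1 and FADS2 add double bonds. The products, such as arachidonic and docosahexaenoic acid, enter membrane phospholipids, where they set fluidity and are the substrates of lipid peroxidation. An siRNA lowers the transcript that it matches along its length. It is also known, like a microRNA, to be able to lower other transcripts whose 3' UTR pairs with a short stretch near its 5' end.

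The deposited values behave as counts that the authors had quantile-normalized. They are termed normalized counts, and by construction each library sums to the same total. Estimated depth before that step was 7.76 to 10.7 M reads in the siELOVL5 libraries and 6.70 to 8.80 M in the double-knockdown libraries. A gene with no read could hold a normalized count of up to 0.917. Of the renal markers, PAX8, a transcription factor of the kidney lineage, was at 536 to 662 in the 6 libraries, whereas CDH1, the epithelial cadherin, was at 0 to 8.67. Summed levels over 20 leukocyte markers were 344 to 357 in siELOVL5 and 355 to 497 in double-knockdown libraries. Most of each sum was 1 gene, CD68, at 288, 303 and 321 against 311, 285 and 451. PTPRC was at 1, 1 and 2.83 in siELOVL5 and at 0 in the 3 double-knockdown libraries. CD3D, CD3E, CD3G and FCGR3A were at 0 in all 12. In these bulk samples fewer cells of a type and less RNA per cell cannot be told apart. Replicate 3 of siELOVL5 stood apart. limma gave it the lowest of 12 library weights (0.228), and its residuals had the highest SD (0.46 on the log2 scale). ATF3, a stress-induced transcription factor, reached 4390 normalized counts in siELOVL5 replicate 3, against 212 and 180 in replicates 1 and 2, and was at 222, 173 and 144 in the double-knockdown replicates. JUN, an immediate early transcription factor, was at 1029, 955 and 4844 against 1020, 925 and 1007. Calls of named genes that were lost without that library are given with and without it, as are the medians of several lists.

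ELOVL2 transcript was lowered in all 3 double-knockdown libraries. Replicates 1, 2 and 3 of siELOVL5 held 286, 235 and 165 normalized counts, and those of the double knockdown held 25.4, 26.5 and 19.9. Means were 228 ± 60.8 and 23.9 ± 3.53 (SD, n = 3 each), so that 10.5% remained, and the groups did not overlap. The log2 fold change was -3.17 (SE 0.24, limma adjusted p = 2.30e-05). ELOVL5 was at 147, 141 and 156 in siELOVL5 and at 177, 172 and 187 in the double knockdown, both far under the control mean of 1977. Its libraries did not overlap between the groups, but the log2 fold change of 0.27 (SE 0.09) did not pass the test (limma adjusted p = 0.143). The remaining ELOVL5 transcript was thus 148 ± 7.43 without and 179 ± 7.50 with the ELOVL2 siRNA (SD, n = 3 each).

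**Figure D1:**
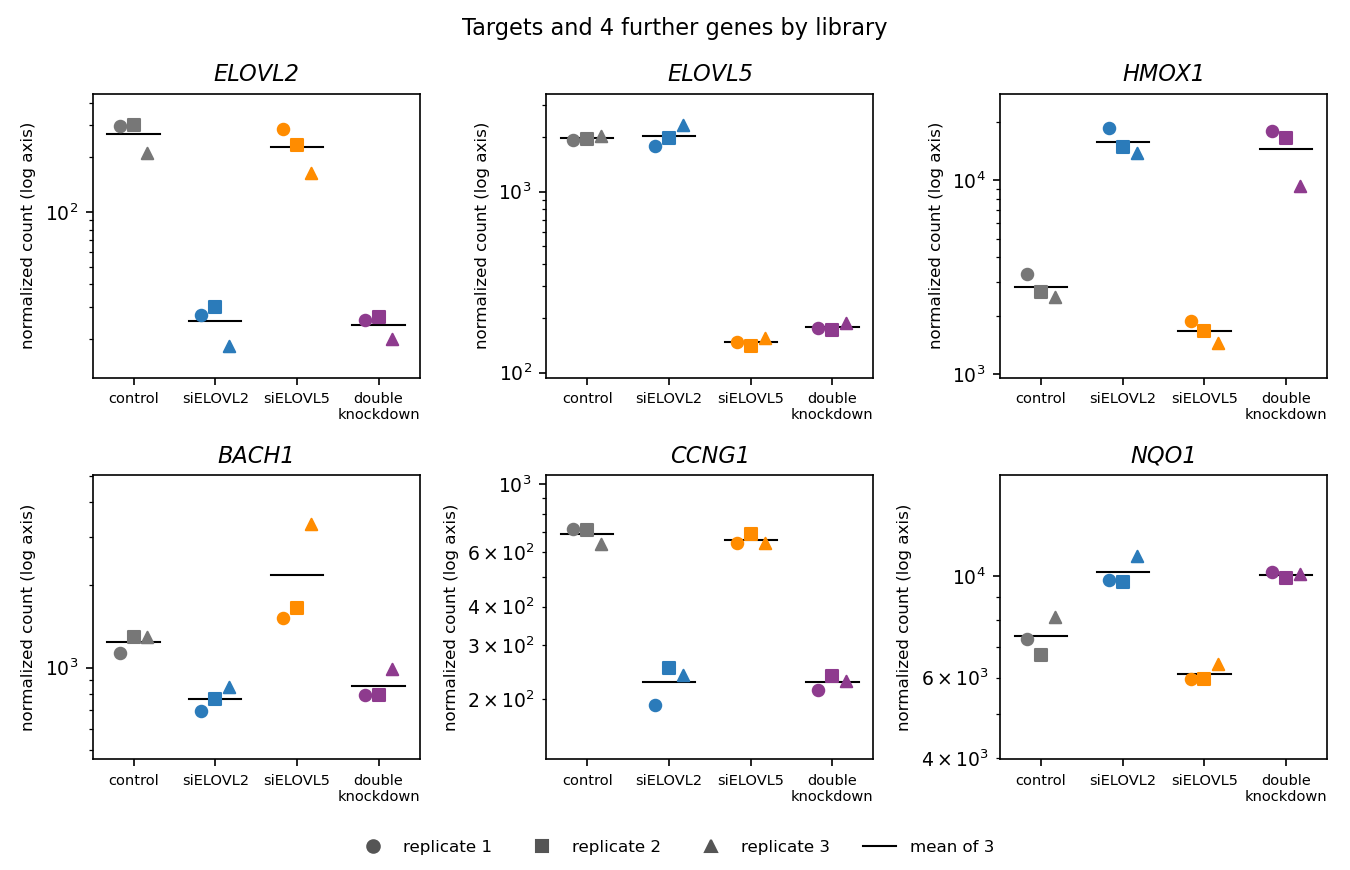
Normalized counts of 6 genes (log axes) in the 12 libraries, 3 replicates for each of control, siELOVL2, siELOVL5 and double knockdown, with the mean of 3 as a line. ELOVL2 and CCNG1 are low and HMOX1 is high in both groups that received the ELOVL2 siRNA; BACH1 is at 3345 in siELOVL5 replicate 3 and between 1515 and 1643 in replicates 1 and 2.

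Across 18648 tested genes, 516 (2.77%) passed an adjusted p of 0.05 in limma. Of these, 253 (1.36%) were higher and 263 (1.41%) lower in the double knockdown. Beyond 2-fold there were 62 genes lower and 12 higher, and the median absolute log2 fold change of the 516 was 0.56. After rescaling the libraries by a median ratio, 199 were higher and 313 lower. The count depended on the fit and on single libraries. It was 21 in a fit on the 6 libraries alone and 200 without the intensity trend. With library weights it was 1251, and with a term for the replicate number in the fit it was 1368. Leaving out 1 library, it was 323 without siELOVL2 replicate 2, 228 without siELOVL5 replicate 1, and 182, 156 and 311 without double-knockdown replicates 1, 2 and 3. Without siELOVL5 replicate 3 it was 789, of which 441 were among the 516. Of the 29 genes with the largest changes described next, 27 were called without that library, and 21 stayed called whichever of the 12 libraries was left out.

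The largest falls beside ELOVL2 itself were in genes of varied function, and for most of them the 3 libraries of a group lay close together. DUSP3, a phosphatase of MAP kinases, was at 1790, 1631 and 1693 in siELOVL5 and 494, 514 and 589 in the double knockdown (log2 fold change -1.68, SE 0.10, limma adjusted p = 3.92e-06). CCNG1, cyclin G1, was at 644, 686 and 645 against 215, 238 and 229 (-1.53, SE 0.10, adjusted p = 1.07e-05). B4GALT1, a Golgi galactosyltransferase, was at 4626, 4788 and 5110 against 1676, 1629 and 2036 (-1.45, SE 0.09, adjusted p = 3.92e-06). In these 3 genes each double-knockdown library held less than any siELOVL5 library by a margin several times the spread within a group. MOB1A, an adaptor of the Hippo kinases, fell from 3220, 3210 and 2697 to 954, 1036 and 1357 (-1.46, limma adjusted p = 5.80e-05). CERK, which phosphorylates ceramide, fell from 384, 411 and 293 to 141, 107 and 106 (-1.61, limma adjusted p = 0.000136). The log2 fold change was -1.59 for VBP1, a subunit of the prefoldin chaperone, -1.29 for TMEM127, an endosomal protein that restrains mTOR, and -1.33 for CDK17, a cyclin-dependent kinase. The groups did not overlap in any of them.

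Less evenly, DLC1, a GTPase-activating protein, was at 696, 564 and 1078 in siELOVL5 and 233, 223 and 196 in the double knockdown (log2 fold change -1.79, limma adjusted p = 0.000587). ZNF367, a zinc finger protein, changed by -1.42 and HMGB3, a chromatin protein, by -1.36. For both, siELOVL5 replicate 3 was the lowest of its group, at 274 and 269. Without that library the log2 fold changes were -1.53 for DLC1, -1.72 for ZNF367 and -1.65 for HMGB3, and each stayed called. Reads of HMGB3 may be shared with near-identical copies, so its value is uncertain. In 3 other falls siELOVL5 replicate 3 was by far the highest library. RSAD2, the interferon-induced viperin, was at 282, 174 and 1479 against 78.0, 57.6 and 35.2 (log2 fold change -2.93, SE 0.59, limma adjusted p = 0.0211). TXNIP, which binds thioredoxin and restrains glucose uptake, was at 702, 717 and 1735 against 302, 268 and 406 (-1.57, adjusted p = 0.0103). CREB5, a transcription factor of the CREB family, was at 548, 443 and 999 against 286, 243 and 140 (-1.54, adjusted p = 0.0349). Without siELOVL5 replicate 3 the limma log2 fold changes were -2.02 for RSAD2 (adjusted p = 0.00783), -1.15 for TXNIP (0.00103) and -1.20 for CREB5 (0.0675), so CREB5 was no longer called. RSAD2 and TXNIP lost their calls without double-knockdown replicate 2, at limma adjusted p = 0.0720 and 0.0584. RSAD2 also lost its call without double-knockdown replicate 3. CREB5 lost its call when any of 8 libraries was left out, with an adjusted p of up to 0.109 (limma) without double-knockdown replicate 3.

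**Figure D2:**
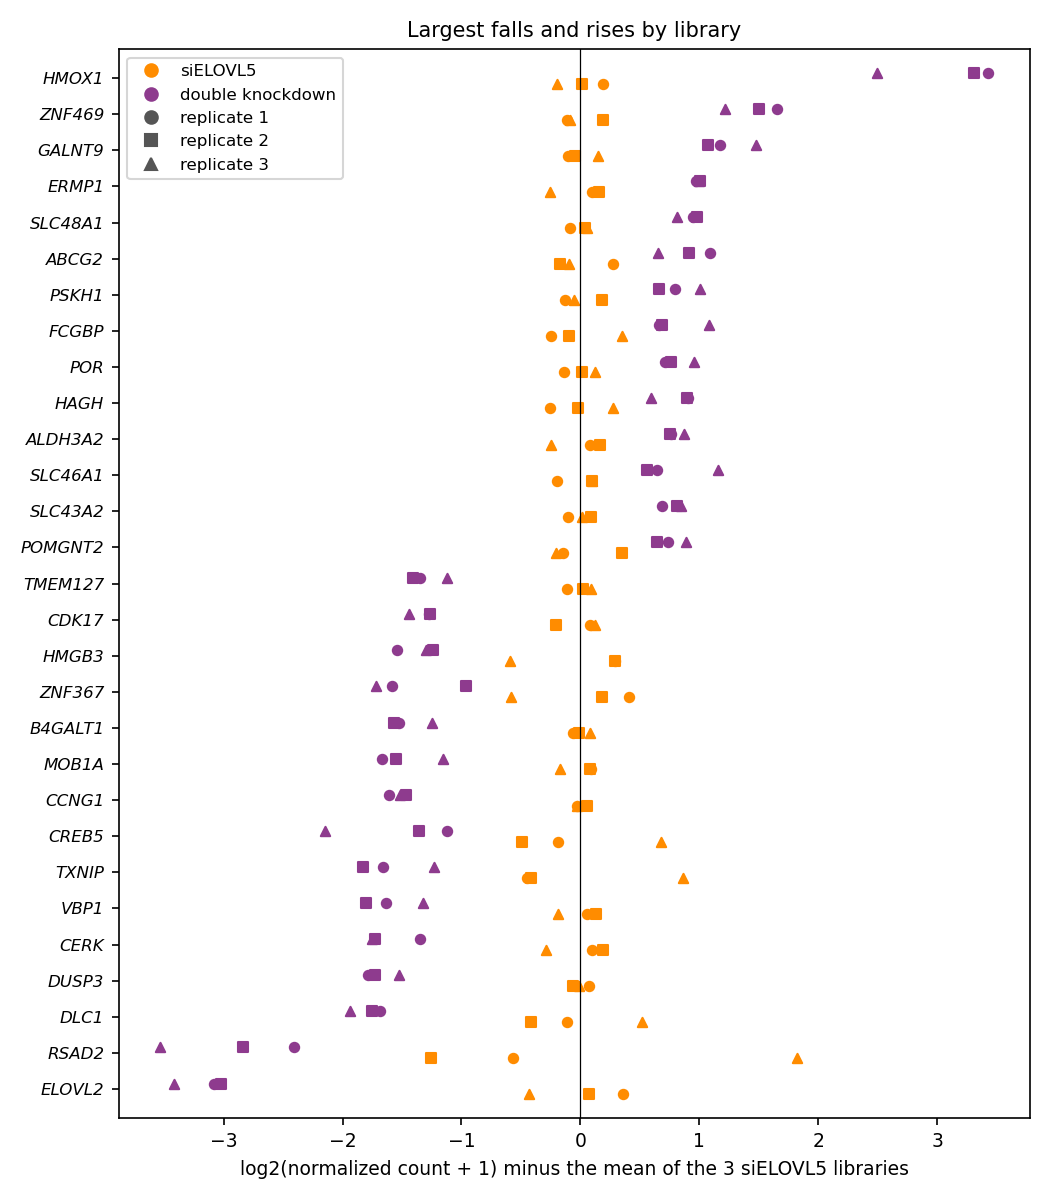
log2(normalized count + 1) of the 15 largest falls and 14 of the 15 largest rises in the 3 siELOVL5 and 3 double-knockdown libraries, each minus the siELOVL5 mean of that gene; marker shapes give the replicate. The groups are apart for all 29 genes shown, and siELOVL5 replicate 3 lies far to the right of replicates 1 and 2 for RSAD2, TXNIP and CREB5.

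Some of the falls, 70 of 219 scanned genes called lower, carried 1 of 3 short sequence words in their 3' UTR. All 7-base words were ranked by how low their carriers lay in siELOVL2 against control, and the words were then described in the double knockdown against siELOVL5, over 9043 genes with an annotated 3' UTR and a level above the median. ACGAATA ranked first and ACGATAA second. The third, TTTTTTA, stood in 48.9% of the 3' UTRs, and its carriers had a median of -0.00 in the double knockdown against siELOVL5. CACGATA, which shares 6 bases with ACGATAA, ranked 6 and was added after the ranking was seen, as was the grouping of the 3 words that hold ACGA. Windows of 27 bases from 3' UTRs of genes that fell are printed to show the words in their context, 5' to 3' on the transcript strand, with the word in capitals. They are from GENCODE 29 on GRCh38, matched by gene symbol, and the build behind the authors' own counts is not stated. All 8 lie in exonic 3' UTR sequence. They are at chr6:10982667-10982693 (ELOVL2), chr17:43768389-43768415 (DUSP3), chr12:96278785-96278811 (CDK17), chr22:46684416-46684442 (CERK), chrX:155239328-155239354 (VBP1), chr2:74156093-74156119 (MOB1A), chr2:96251641-96251667 (TMEM127) and chr21:29344731-29344757 (BACH1). The VBP1 and BACH1 sites are on the plus strand and the other 6 on the minus strand.
ELOVL2: gtcatgagccACGATAAaaaatgccag
DUSP3: aaacccaaacACGATAAacctttcaaa
CDK17: tttaatatttCACGATActaaaatttt
BACH1: atttcagcttCACGATAtaaaataata
CERK: ttgagaagacACGAATAaagttacttg
VBP1: ttactgcttaACGAATAactaactact
MOB1A: cttttattttACGAATAaaaaatgtat
TMEM127: accagaaaccACGAATAagaatggaaa

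At least 1 of the 3 words that hold ACGA was found in the 3' UTR of 343 scanned genes (3.79%). Their median log2 fold change in the double knockdown against siELOVL5 was -0.22, against 0.03 over all scanned genes. Of the 343, 76.7% lay below 0, against 44.4% of all scanned genes. limma called 70 of the 343 lower (20.4%), ELOVL2 included, and 2 higher (0.583%), against 2.42% and 2.60% of all scanned genes. The 2 were ATP5E, a subunit of ATP synthase, and SLC35D1, a nucleotide sugar transporter, both named after their values were seen. Their log2 fold changes were 0.43 and 0.46, and limma adjusted p reached 0.0603 and 0.0925 without double-knockdown replicate 1. Read the other way, 70 of 219 scanned genes called lower carried a word (32.0%), 2 of 235 called higher did (0.851%), and 21 of 35 called at least 2-fold lower did (60%). For single words the medians were -0.24 over 146 carriers of ACGAATA, -0.23 over 129 of ACGATAA and -0.26 over 110 of CACGATA. The word ranking had used siELOVL2 against control, where the same 343 genes had a median of -0.18.

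Among the 14 largest falls other than ELOVL2, 10 carried a word, namely RSAD2, DLC1, DUSP3, CERK, VBP1, CCNG1, MOB1A, ZNF367, CDK17 and TMEM127. TXNIP, CREB5, B4GALT1 and HMGB3 carried none. Of the 15 largest rises, 13 were scanned and 0 carried a word. The 1 ELOVL2 transcript in the annotation carried ACGATAA and, overlapping it, CACGATA, and the 7 ELOVL5 transcripts carried none of the 3 words. A match is a description of letters, and whether the words pair with the ELOVL2 siRNA was not tested, since the labels do not give its sequence.

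**Figure D3:**
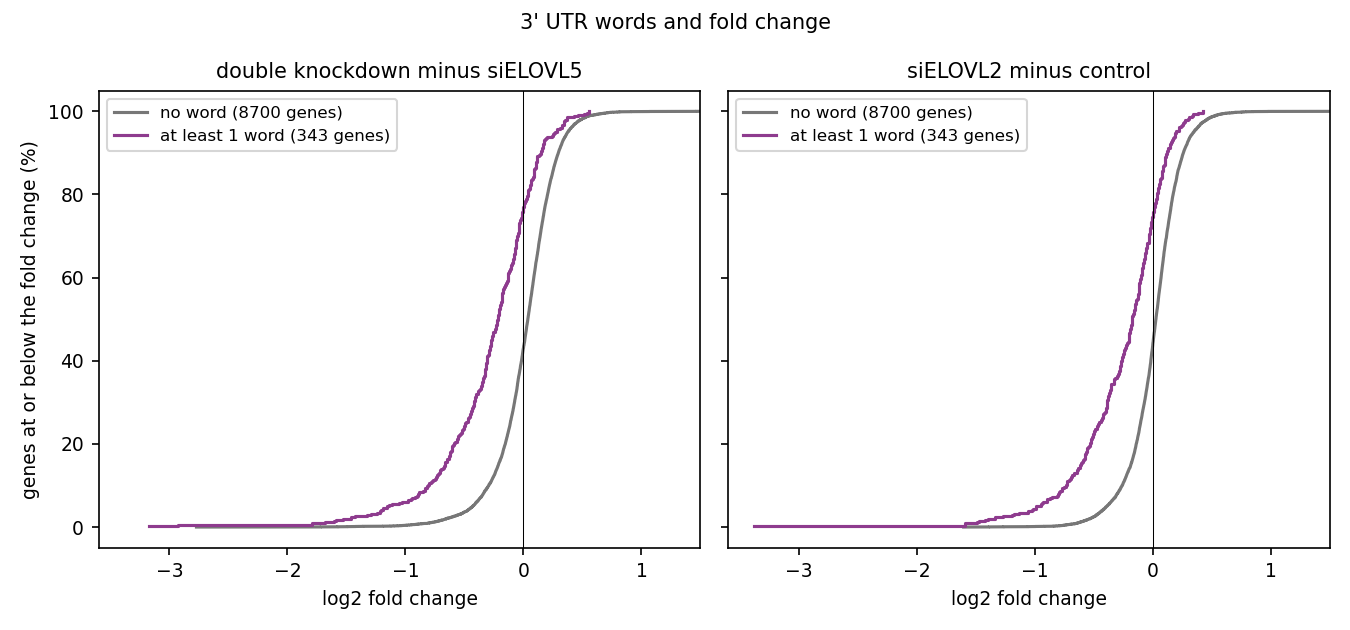
Cumulative share of scanned genes (%) by log2 fold change, for 343 genes with at least 1 of the 3 words that hold ACGA in the 3' UTR and 8700 without, in the double knockdown against siELOVL5 (left) and siELOVL2 against control (right). In both panels the genes with a word lie to the left, with 76.7% of them below 0 in the left panel. The words were ranked on the fold changes of the right panel, so the shift there follows from that choice.

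HMOX1, heme oxygenase, which splits heme into iron, carbon monoxide and biliverdin, rose most among the genes above the median level. It was at 1883, 1669 and 1441 normalized counts in siELOVL5 and at 17859, 16379 and 9307 in the double knockdown, a mean 8.72-fold higher (log2 fold change 3.08, SE 0.21, limma adjusted p = 1.07e-05). The lowest double-knockdown library, replicate 3, was still far above every siELOVL5 library. SLC48A1, which carries heme out of lysosomes, was at 269, 294 and 297 against 555, 566 and 505 (0.91, SE 0.10, limma adjusted p = 0.000531). POR, the electron donor of heme oxygenase and of cytochrome P450 enzymes, was at 1696, 1888 and 2029 against 3053, 3169 and 3614 (0.81, SE 0.10, adjusted p = 0.000838). ABCG2, an efflux pump that also exports porphyrins, was at 360, 265 and 279 against 639, 565 and 471 (0.89, SE 0.14, adjusted p = 0.00625). These 4 genes of heme handling stayed called whichever of the 12 libraries was left out.

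Of 20 tested genes of heme and iron handling, 6 were called higher and 1 lower, against 1.36% and 1.41% of all tested genes. The median log2 fold change of the list was 0.28, against 0.02 over all tested genes. The other 2 called higher were FTH1, the ferritin heavy chain (0.33), and SLC11A2, an iron importer (0.30). FTL, the ferritin light chain, had 0.36 at a limma adjusted p of 0.0706. The 1 called lower was BACH1, a heme-binding repressor of HMOX1 and other antioxidant genes, which lies outside the rule for named genes and was singled out after its values were seen. It was at 1515, 1643 and 3345 in siELOVL5 and 796, 795 and 990 in the double knockdown (-1.24, SE 0.23, limma adjusted p = 0.0132). The groups did not overlap, and siELOVL5 replicate 3 was high. Without that library the log2 fold change was -0.88 (limma adjusted p = 0.00122), and without double-knockdown replicate 2 the adjusted p was 0.0638. BACH1 also lost its call without double-knockdown replicate 1. FTH1 lost its call when any of 10 libraries was left out and SLC11A2 when any of 8 was, with limma adjusted p of up to 0.134 and 0.113, both without double-knockdown replicate 1.

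The factor of the NRF2 and glutathione list, NRF2, switches on detoxifying and NADPH-forming enzymes. Of 27 tested genes of the list, 6 were called higher and 0 lower, with a median of 0.27. Of all tested genes, 1.36% were called higher and 1.41% lower. NQO1, a quinone reductase, was at 5968, 5968 and 6421 against 10213, 9892 and 10102 (log2 fold change 0.72, SE 0.08, limma adjusted p = 0.000615). GCLM, the modifier subunit of the first enzyme of glutathione synthesis, was at 3762, 3802 and 4542 against 6378, 6302 and 5748 (0.61, adjusted p = 0.00301). TKT (0.50) and PGD (0.43), of the pentose phosphate pathway, which forms NADPH and ribose, were also called higher, as was FTH1. NFE2L2, which encodes NRF2, had -0.20 (limma adjusted p = 0.496) and its inhibitor KEAP1 0.11 (adjusted p = 0.491). GCLC, the catalytic partner of GCLM, had 0.32 (limma adjusted p = 0.0592). PGD lost its call when any of 7 libraries was left out (limma adjusted p = 0.105 without double-knockdown replicate 3).

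The antioxidant response element was searched in RefSeq promoters of GRCh38.p14, each from 250 bases before to 50 after a start site, as TGACNNNGC on both strands. It was in 4687 of 35116 promoters (13.3%). A gene is counted below when any of its promoters held the element. Counts of genes and this share of single promoters are therefore unlike measures. Of 20 tested members of the NRF2 and glutathione list with a promoter in that table, 6 held it, and of 4 of these members called higher, GCLM and PGD did. Of 16 members of the heme and iron list, 3 held it, ABCG2 among them, which was 1 of 3 called higher. HMOX1 was not searched. The GCLM and PGD windows show the element as its reverse complement in capitals, on the strand of the gene, at chr1:93909446-93909474 (GCLM, minus strand) and chr1:10398853-10398881 (PGD, plus strand).
GCLM: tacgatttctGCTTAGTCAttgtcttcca
PGD: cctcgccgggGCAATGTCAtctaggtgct

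The other large rises came from several functions. ZNF469, a zinc finger protein linked to brittle cornea syndrome, was at 137, 169 and 139 against 467, 421 and 345 (log2 fold change 1.46, SE 0.12, limma adjusted p = 5.80e-05). GALNT9, which starts O-linked glycans, was at 347, 361 and 413 against 841, 784 and 1041 (1.24, adjusted p = 0.00583). ERMP1, a metallopeptidase of the endoplasmic reticulum, was at 379, 395 and 296 against 694, 712 and 707 (0.99, adjusted p = 0.000531). All 3 stayed called whichever of the 12 libraries was left out. So did ALDH3A2, which oxidizes fatty aldehydes (0.80), and SLC43A2, an amino acid transporter (0.78). HAGH, a glyoxalase (0.80), SLC46A1, a folate and heme importer (0.79), PSKH1, a serine kinase (0.82), FCGBP, a mucus protein (0.81), and POMGNT2, a glycosyltransferase of dystroglycan (0.76), were called but depended on single libraries. Their highest limma adjusted p was 0.0638 for HAGH without double-knockdown replicate 2. It was 0.0847 for SLC46A1 and 0.0792 for POMGNT2 without siELOVL5 replicate 1, and 0.126 for PSKH1 and 0.104 for FCGBP without double-knockdown replicate 3. PSKH1 was also lost without siELOVL5 replicate 3 (0.80, limma adjusted p = 0.0651).

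Calls among genes of lipid metabolism went in both directions. The share of members called was between 10.3% and 14.3% in the elongation, phospholipid, sphingolipid and fatty acid oxidation lists. The elongation share counts ELOVL2, the siRNA target itself. In the ferroptosis list it was 10%, in eicosanoids 8.33%, in lipid droplets 4.55%, in cholesterol 3.85% and in fatty acid synthesis 0%. Over all tested genes it was 2.77%. Of the 9043 genes scanned for 3' UTR words, which have higher levels, 2.42% were called lower and 2.60% higher. Among 23 tested genes of fatty acid elongation and desaturation, 2 were called higher and 1, ELOVL2, lower, with a median of 0.16. The 2 were CYB5R3 (log2 fold change 0.33) and CYB5A (0.71), the reductase and the cytochrome b5 that feed electrons to desaturases. CYB5A was at 193, 214 and 224 against 305, 317 and 420. The desaturases themselves were not called, with 0.16 for FADS1 and 0.11 for FADS2 (limma adjusted p = 0.847 and 0.914). In phospholipid remodelling, 2 of 29 were called higher and 1 lower. These were AGPAT3 (0.44) and AGPAT4 (-0.42), acyltransferases of lysophosphatidic acid, and PNPLA6, a lysophospholipase (0.44). Among 28 sphingolipid genes, 2 were higher and 2 lower. CERK, described above, had -1.61. The subunits of serine palmitoyltransferase, which starts sphingolipid synthesis, moved apart, with 0.34 for SPTLC1 and -0.50 for SPTLC2.

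Fatty acid oxidation and PPAR targets had 2 of 29 higher, HADHB of the mitochondrial trifunctional protein (0.43) and CPT2, a carnitine palmitoyltransferase (0.55). The 2 lower were PPARD, a fatty acid receptor (-0.38), and PLIN2, a lipid droplet coat protein (-0.47). PLIN2 was at 4769, 5038 and 6139 against 3586, 3471 and 4432 and was the 1 of 22 lipid droplet genes that was called. Without siELOVL5 replicate 3 it had -0.36 (limma adjusted p = 0.0581). Of 26 cholesterol genes, 1 was called, SCAP, the escort of SREBP (0.41), and of 14 genes of fatty acid synthesis 0 were (2 higher and 1 lower at an unadjusted limma p under 0.05, which 9.83% of all tested genes passed higher and 7.56% lower). Among 20 ferroptosis genes, GPX4, which reduces lipid hydroperoxides, was higher, at 848, 796 and 744 against 1152, 1106 and 1060 (0.48, SE 0.08, limma adjusted p = 0.0115). PTGS2, an inducible cyclooxygenase, was lower, at 44.8, 31.3 and 156 against 14.6, 9.17 and 17.5 (-2.10, adjusted p = 0.0415). Without siELOVL5 replicate 3, the highest for PTGS2, it was -1.43 (limma adjusted p = 0.0531). PTGR1, which inactivates prostaglandins and leukotrienes, was the other of 24 eicosanoid genes called (0.64).

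Of the lipid genes named, ELOVL2, CERK, PNPLA6 and PTGR1 stayed called whichever of the 12 libraries was left out. The other calls were lost, with the highest limma adjusted p at 0.100 (AGPAT3), 0.148 (AGPAT4), 0.0818 (SPTLC1), 0.151 (PLIN2), 0.0690 (SCAP), 0.0548 (GPX4) and 0.148 (PTGS2) without double-knockdown replicate 2. They reached 0.142 (SPTLC2), 0.0795 (CPT2) and 0.135 (PPARD) without replicate 1, and 0.0699 (CYB5R3) and 0.138 (CYB5A) without replicate 3 of the double knockdown. HADHB reached 0.0626 (limma adjusted p) without siELOVL5 replicate 1.

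Of 33 tested adhesion and matrix genes, 4 were called lower and 0 higher, against 1.41% and 1.36% of all tested genes. In this list 26 lay below 0 and 7 above, and the median was -0.20. Of all tested genes, 46.6% lay below 0. In 10 of the 33 the groups did not overlap, with the double knockdown lower, as in 7.43% of all tested genes. CDH2, N-cadherin, was at 3293, 3309 and 2825 against 1669, 1700 and 1726 (log2 fold change -0.88, SE 0.08, limma adjusted p = 5.80e-05). CD44, the hyaluronan receptor, was at 17859, 15561 and 16654 against 11988, 10213 and 9892 (-0.64, adjusted p = 0.0200). THBS1, thrombospondin, had -0.84 and COL5A1, a fibrillar collagen chain, -0.38. The 3' UTR of CDH2 carries ACGATAA, and that of CD44 carries CACGATA. In the TGF-beta list of 26, SKIL, a repressor of SMAD factors (-0.72), and LTBP1, which stores latent TGF-beta (-0.57), were lower. ID1, a target of BMP signalling, was higher (0.57). These calls make up 11.5% of the list, against 2.77% of all tested genes. VCAM1, an adhesion molecule of proximal tubule cells and of inflamed endothelium, was at 2067, 1826 and 2046 against 1522, 1342 and 1227 (-0.54, limma adjusted p = 0.00694).

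Among 32 HIF targets and glycolysis genes, 5 were called lower and 0 higher, against 1.41% and 1.36% of all tested genes. EGLN1, a prolyl hydroxylase that marks HIF for decay, was at 1336, 1306 and 1248 against 756, 785 and 726 (log2 fold change -0.78, SE 0.08, limma adjusted p = 0.000224) and carries ACGAATA in its 3' UTR. TGFA, a ligand of the EGF receptor, was at 3064, 3092 and 4207 against 1884, 1647 and 2167 (-0.86, adjusted p = 0.00699). Without siELOVL5 replicate 3 TGFA had -0.71. LDHA, lactate dehydrogenase, had -0.40, HK2, a hexokinase, -1.04, and PFKFB4, which tunes glycolysis, -0.61. HK2 was at 657, 565 and 1127 in siELOVL5, highest in replicate 3, and without that library its log2 fold change was -0.74 (limma adjusted p = 0.0396). PFKFB4 then had an adjusted p of 0.0644 (limma). The 36 tested nuclear-encoded subunits of oxidative phosphorylation had 0 called, with a median of 0.17 (0.11 without siELOVL5 replicate 3). In 16 of the 36 the groups did not overlap, with the double knockdown higher, as in 11.4% of all tested genes. At an unadjusted p under 0.05 limma gave 16 of the 36 as higher and 0 as lower, against 9.83% and 7.56% of all tested genes. ATP5E, the called ATP synthase subunit, was not on that list.

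The remaining lists held between 0 and 5 calls each. Over all tested genes 1.36% were called higher and 1.41% lower. Of 32 lysosome genes, 4 were higher, among them CTSL, cathepsin L (log2 fold change 0.50), NEU1, a sialidase (0.53), and SQSTM1, an autophagy receptor (0.45). ATP6V1A, a subunit of the proton pump, was lower (-0.41) and carries ACGAATA. BCL2L11, the pro-apoptotic BIM, was higher, at 620, 680 and 687 against 921, 1016 and 1000 (0.56, limma adjusted p = 0.00977). Cyclin E1, CCNE1, was at 220, 231 and 208 against 331, 336 and 322 (0.58, limma adjusted p = 0.00977). PIK3R3, a regulatory subunit of PI3-kinase, had -0.71, EIF4EBP2, a translation repressor, 0.31, and LATS2, a Hippo kinase, -0.80. The p53 targets CCNG1 and ZMAT3, an RNA-binding protein (0.46), moved apart. CDC25B, a mitotic phosphatase, had 0.48. limma called 0 of 15 genes of RNA interference and 0 of 24 endoplasmic reticulum stress genes, with 2 higher and 2 lower, and 2 higher and 3 lower, at an unadjusted p under 0.05, against 9.83% higher and 7.56% lower of all tested genes. The 2 most abundant members were taken from each of the 18 lists with fewer than 2 calls, and 33 of these 36 were not called, with log2 fold changes from -0.93 (MX1) to 0.60 and a median of 0.03. In 26 of the 33 the groups overlapped. Most tested genes overlapped too, with 11.4% apart with the double knockdown higher and 7.43% apart with it lower.

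CDH2, SKIL, VCAM1, EGLN1, TGFA and CTSL stayed called whichever of the 12 libraries was left out. Without double-knockdown replicate 2, limma adjusted p was 0.0855 for CD44, 0.156 for ID1, 0.0690 for LDHA, 0.141 for PFKFB4, 0.119 for SQSTM1, 0.0602 for ATP6V1A, 0.0548 for BCL2L11, 0.0506 for CCNE1, 0.122 for LATS2 and 0.148 for CDC25B. Without replicate 1 it was 0.127 for COL5A1, 0.0879 for LTBP1 and 0.0677 for NEU1, and without replicate 3 it was 0.103 for HK2, 0.133 for EIF4EBP2 and 0.135 for ZMAT3. Without siELOVL5 replicate 1 it was 0.0779 for THBS1 and 0.0558 for PIK3R3 (limma adjusted p). Each value is the highest over the 12 libraries left out in turn. Without siELOVL5 replicate 3, calls were also lost by LATS2 (log2 fold change -0.56, limma adjusted p = 0.0531), ID1 (0.43, 0.0846), ZMAT3 (0.37, 0.0801), CDC25B (0.35, 0.0671) and EIF4EBP2 (0.27, 0.0651).

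Several stress lists lay low in the double knockdown, and their medians moved with siELOVL5 replicate 3. Over 49 interferon-stimulated genes the median was -0.65 with that library and -0.30 without it, and RSAD2 was the 1 member called (lower) in either case. Of the 49, 47 lay below 0 with all libraries and 45 without siELOVL5 replicate 3, against 46.6% of all tested genes with all libraries. At an unadjusted limma p under 0.05, 24 of the 49 were lower and 0 higher with all libraries. Of all tested genes, 7.56% were lower and 9.83% higher at that threshold. MX1, an antiviral GTPase, shows the overlap of the groups, at 5124, 2314 and 5574 against 3376, 1901 and 1504 (log2 fold change -0.93, limma adjusted p = 0.248). ATF4 and amino acid response genes had medians of -0.50 and -0.14 with and without the library. PHGDH, the first enzyme of serine synthesis (-0.59), and SLC7A5, a transporter of large amino acids (-0.54), were the 2 of 29 called with all libraries. Of all tested genes, 1.36% were called higher and 1.41% lower. In the ATF4 list 26 lay below 0, and 13 were lower and 1 higher at an unadjusted limma p under 0.05. NF-kappaB and inflammatory genes had medians of -0.54 and -0.27 with and without siELOVL5 replicate 3. With all libraries VCAM1 was the 1 of 27 called (lower). Immediate early genes had -0.40 and -0.07, and FOSL2, an AP-1 subunit, was the 1 of 24 called (-0.40, limma adjusted p = 0.04999), with -0.30 (0.0700) without the library. SLC7A5 had -0.34 without it (limma adjusted p = 0.0141). PHGDH and SLC7A5 reached limma adjusted p of 0.0731 and 0.133 without double-knockdown replicate 1, and FOSL2 0.145 without replicate 3. HIF targets and glycolysis genes had -0.28 and -0.12.

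Proliferation lists moved the other way. Over 40 mitosis genes the median was -0.18 with siELOVL5 replicate 3 and -0.50 without it. With all libraries 37 of the 40 lay below 0, with 1 called higher and 0 lower. Of all tested genes, 46.6% lay below 0, 1.36% were called higher and 1.41% lower. Without siELOVL5 replicate 3, 375 of all 18447 tested genes were called higher and 414 lower. Of the 40 mitosis genes, 38 then lay below 0, with 0 called higher and 3 lower. These were MKI67, the proliferation marker Ki-67 (-0.68, and -0.28 with all libraries), NUSAP1, a spindle protein (-0.56 and -0.20), and CDC25C, a mitotic phosphatase (-0.62 and -0.25), named after their values were seen. Over 40 replication genes the median was 0.03 with that library and -0.19 without it. Over 29 replication-dependent histone genes, whose near-identical copies may share reads, it was -0.07 and -0.27. In siELOVL2 against control the medians were -0.42, -0.24 and -0.30 for these 3 lists. Cholesterol genes had -0.15 with the library and 0.11 without it, and fatty acid synthesis genes 0.07 and 0.37. The heme and iron list (0.28 and 0.26), the NRF2 and glutathione list (0.27 and 0.33) and the adhesion list (-0.20 and -0.26) moved little. After median-ratio rescaling, the phospholipid remodelling, lipid droplet, replication and insulin lists had medians of -0.02, -0.03, -0.01 and -0.02, against 0.01, 0.00, 0.03 and 0.01 in the values as deposited.

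**Figure D4:**
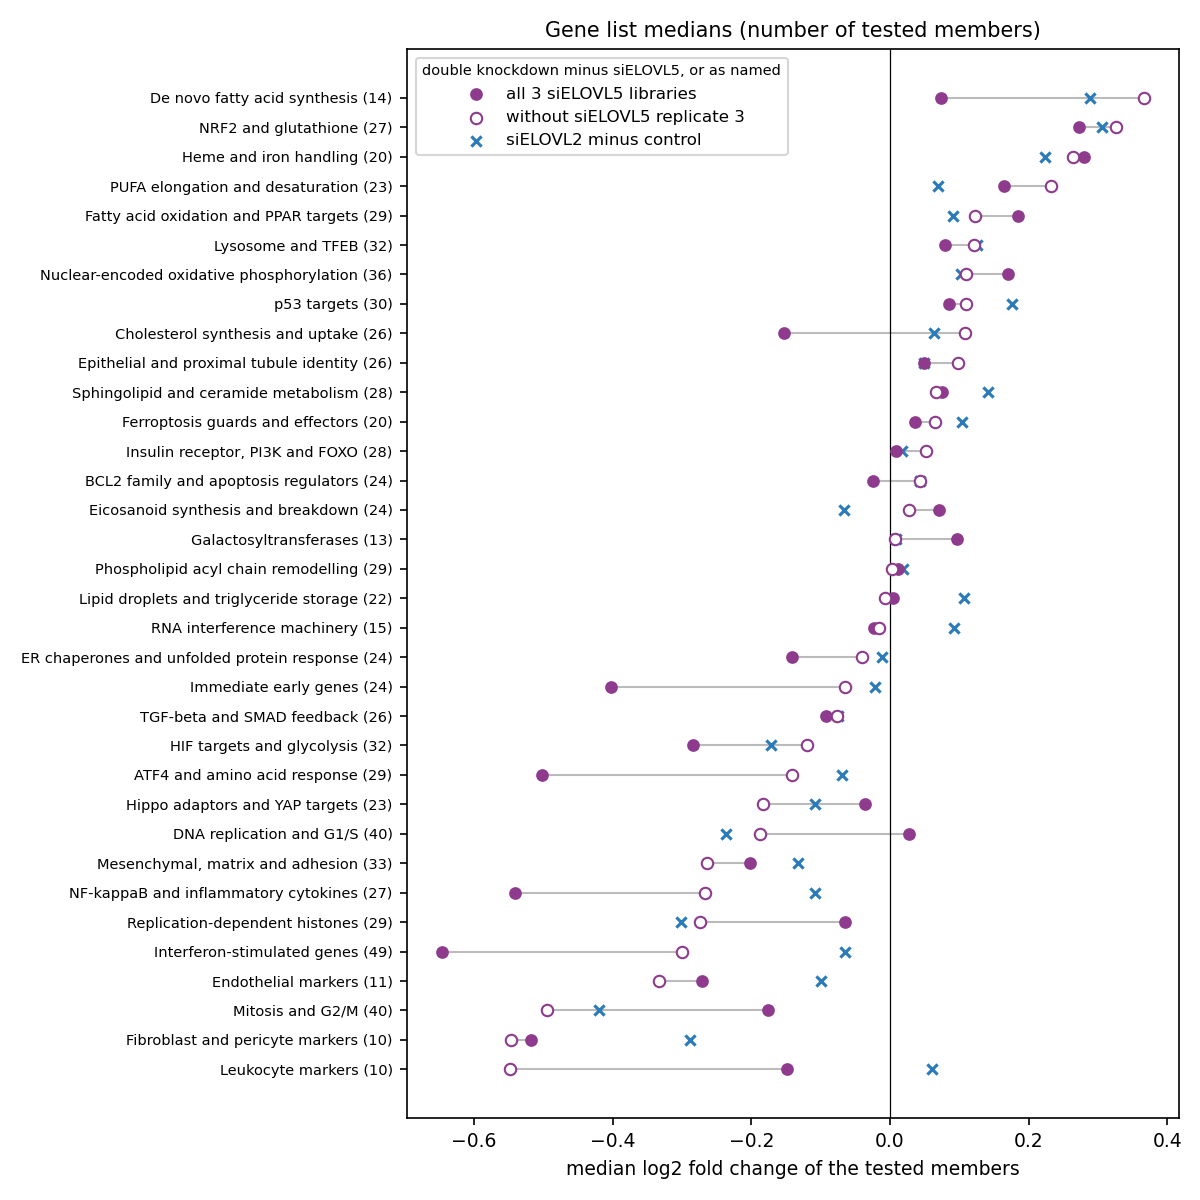
Median log2 fold change of the tested members of 34 gene lists (number tested in brackets) in the double knockdown against siELOVL5 with all libraries (filled), without siELOVL5 replicate 3 (open) and in siELOVL2 against control (crosses). The interferon list moves from -0.65 to -0.30 and the mitosis list from -0.18 to -0.50 when that library is left out.

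Whether the ELOVL2 siRNA acted differently in cells with and without the ELOVL5 siRNA was tested as the interaction of the 2 siRNAs. limma called 0 of 18648 genes, 522 (2.80%) had an unadjusted p under 0.05, and the smallest adjusted p was 0.996. For HMOX1 the difference between the 2 log2 fold changes was 0.60 (SE 0.30), for RSAD2 -1.34 (SE 0.83) and for CCNG1 0.06 (SE 0.15). The median SE of such a difference was 0.16 over genes above the median level, and no difference passed at any size, that of RSAD2 included.

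The siRNA given alone, siELOVL2 against control, had 254 called genes (1.36%), 102 higher (0.547%) and 152 lower (0.815%). There were 193 genes called in both comparisons in the same direction, 73 higher and 120 lower, and 0 in opposite directions. The 193 make up 37.4% of the 516 and 76.0% of the 254. Each gene had the same SE in both comparisons, from the fit over all 12 libraries, so the 2 sets of calls are not independent. Of the 516, 513 had the same sign in siELOVL2 against control, as had 66.1% of all tested genes. The log2 fold change was larger in size against siELOVL5 than against control for 429 of the 516, and for 112 of the 254, each list having been chosen in 1 of the 2 comparisons.

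Side by side, the leading genes gave the following pairs of log2 fold changes, first against siELOVL5 and then against control. ELOVL2 had -3.17 and -3.38, CCNG1 -1.53 and -1.59, B4GALT1 -1.45 and -1.34, and DUSP3 -1.68 and -1.49. HMOX1 had 3.08 and 2.48, ZNF469 1.46 and 1.24, SLC48A1 0.91 and 0.93, and POR 0.81 and 0.82. All 8 were called in both. RSAD2 had -2.93 and -1.59, CREB5 -1.54 and -0.66, TXNIP -1.57 and -1.04 and BACH1 -1.24 and -0.68, and none of these 4 was called against control (limma adjusted p = 0.235, 0.439, 0.0861 and 0.178). In all 4, siELOVL5 replicate 3 was the highest library of its group.

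**Figure D5:**
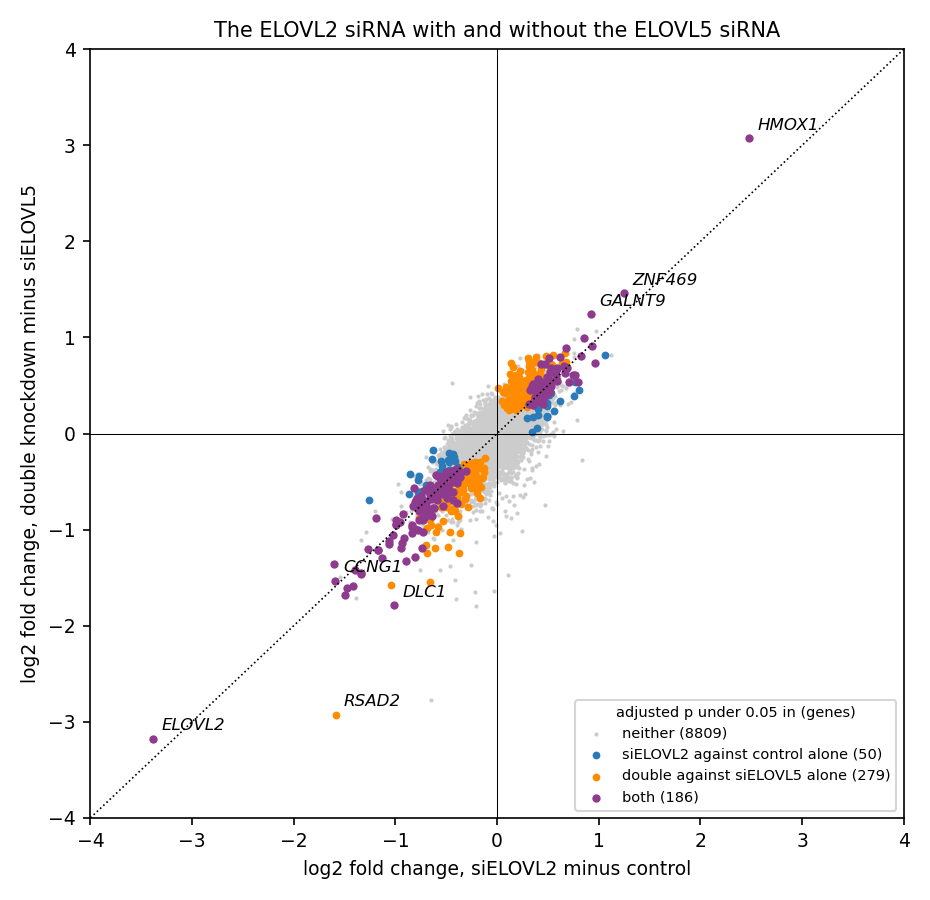
log2 fold change of 9324 genes with a mean at or above the median level in the 6 libraries, siELOVL2 minus control on the horizontal axis and double knockdown minus siELOVL5 on the vertical axis, coloured by where limma called them; the dotted line marks equal values. The 186 genes called in both lie in the lower left and upper right quadrants.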

How the data were processed

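RNA of 12 A498 libraries, 3 for each of 4 siRNA treatments, had been sequenced on a NextSeq 500, per the labels' protocols. The deposited signal values are normalized counts per gene for 57773 genes. Aligner, counter, build and annotation: not given in the sources used here. In the deposited table all 12 columns hold an identical set of values, and each is a multiple of 1 over 12, as when counts are quantile-normalized over 12 libraries. A count-based test was therefore not used. Depth was estimated from the order of tied low values.

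log2(value + 1) was fitted with limma 3.58.1 in R 4.3.3 with 4 group means (8 residual degrees of freedom) and an intensity trend, over 18648 genes that reached 1 in 3 or more libraries. The contrasts were the double knockdown minus siELOVL5, siELOVL2 minus control, and their difference. Benjamini-Hochberg adjustment covered all tested genes, with a threshold of 0.05, and a gene is called when it passes. Named genes were ELOVL2, ELOVL5, up to 15 called genes each way with the largest fold changes, no overlap between groups and a mean at or above 94.3, and up to 4 called members of each list by adjusted p (where fewer than 2 were called, also the 2 most abundant members; 33 of these were not called and are given as a range, with only MX1 and JUN printed singly). FTH1, PGD, SLC11A2, PFKFB4, SQSTM1, BACH1, ATF3, PAX8, ATP5E, SLC35D1, MKI67, NUSAP1, CDC25C, CDH1, FTL, GCLC, NFE2L2, KEAP1, FADS1 and FADS2 were named after their values were seen. Some genes that the rule names are not reported here. The members and the 34 lists were chosen with earlier results of these data known, and 880 of 886 listed genes matched the table. For the 3' UTR words, 14178 tested genes matched GENCODE 29 by symbol, 646 by an older symbol, and 3824 had no match. The fit, the depth estimate and the word ranking were tested on simulated data.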

Additional observations from a re-analysis of the deposited data

How the results depend on the processing

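The count of genes called in the double knockdown against siELOVL5 was 516. It stayed within 1.5 times that number with a pseudocount of 0.5 or 5, with no filter or a stricter filter on low values, and after median-ratio rescaling. It was 21 in a fit on the 6 libraries alone, 200 without the intensity trend and 1251 with library weights, and 156 to 789 when 1 library was left out. For siELOVL2 against control, called 254 times, the counts were 101 without the trend and 1569 with library weights, and 63 to 829 when 1 library was left out. Genes called in both were 67 without the trend, 771 with library weights and 56 to 493 when 1 library was left out. The interaction had 9 calls without the trend and 0 to 0 when 1 library was left out. The median of genes with a 3' UTR word was -0.25 after median-ratio rescaling, -0.21 with library weights and -0.22 to -0.19 when 1 library was left out.

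The groups share replicate numbers. The deviations of same-numbered double-knockdown and siELOVL5 libraries correlated at 0.12, -0.00 and 0.09, and those of siELOVL2 and control at 0.14, 0.01 and 0.16. Not every pair was above 0.1, so the numbers were not taken as pairs, although 10 of 12 libraries correlated best with others of their own number. With the replicate block, 1368 genes were called in the double knockdown against siELOVL5, 861 in siELOVL2 against control and 580 in both. With the block and without siELOVL5 replicate 3, a choice made after seeing the data, the counts were 2175, 2597 and 1530, and the median of genes with a word was -0.20. All 80 called genes named in the text were called with the block.

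Of those 80, 32 stayed called whichever library was left out. Of the 29 largest changes described, 13 were called in the fit on 6 libraries alone. Uncalled genes that changed sign when 1 library was left out were NFE2L2 (-0.31 to 0.017, the latter without siELOVL5 replicate 3), FADS1 (-0.13 to 0.51; negative without siELOVL5 replicate 1, and at -0.07 without the third double-knockdown library) and FADS2 (-0.21 to 0.38; -0.18 and -0.21 without the same libraries). JUN had 0.019 with the block and without siELOVL5 replicate 3. The cause of these shifts was not tested.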
